A study of Mus musculus with 6 samples.

Results

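The Bcl2 family genes examined here are 10 of the 20637 genes listed for the mouse uterus, taken by symbol: the survival genes Bcl2, Bcl2l1 and Mcl1, the pore-forming genes Bak1 and Bok, and the BH3-only genes Bid, Bcl2l11, Bad, Bik and Bmf. Whole uteri were collected from female mice on postnatal day 21, with 3 libraries from floxed mice (Nat10 f/f, the controls) and 3 from mice carrying the deleted allele (Nat10 d/d). Nat10 encodes an acetyltransferase that modifies cytidines in RNA, and the comparison asks which genes differ in the uterus when it is deleted. No treatment is named for either group. The labels give no strain, Cre driver or deleted exons, and they do not say in which cells the deletion occurs or whether animals were pooled. They also do not say that replicates are separate animals, so p-values measure the spread between these libraries.

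Proteins of the Bcl2 family decide whether the outer membrane of the mitochondrion stays intact or is opened, which releases cytochrome c and activates caspases. Survival members hold the pore-forming members in check, and BH3-only members, named after the one short helix they share with the rest of the family, are produced or activated under stress and bind both kinds. Much of this control acts on the proteins themselves, so messenger RNA levels describe only 1 layer of it. In the uterus the pathway is known for the loss of epithelial cells over the oestrous cycle.

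Values were taken as FPKM, that is, fragments scaled to transcript length and to library size. This unit was inferred from the named software and from the values, since the tables do not state it, and any order of levels between genes rests on it. All 10 members passed the filter on low values (at least 1 FPKM in at least 3 libraries), as did 12640 genes in all. Nat10 itself was at 13.2, 16.4 and 9.95 FPKM in control replicates 1, 2 and 3 and at 5.57, 5.23 and 5.53 FPKM in Nat10-deleted replicates 1, 2 and 3, without overlap. Relative sequencing depth, estimated from the lowest values, differed by at most 1.26 times between libraries, and absolute depth is unknown. Markers of uterine compartments were present in both groups, and all 12 markers of epithelium, 10 of stroma and 8 of smooth muscle passed the filter. Nat10-deleted replicate 2 stood apart from the other libraries, being highest for 30.1% and lowest for 25.7% of the 12640 tested genes. All 11 tested proliferation markers were highest there, and their summed level was 219.5 FPKM in that library against 11.5 to 90.9 FPKM in the other 5.

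No member passed the threshold between Nat10-deleted and floxed control uteri (limma, adjusted p of 0.05 over all tested genes), and 0% of all 12640 genes did. Nat10 itself was not called, with a log2 difference of -1.11 (limma unadjusted p 0.000265, adjusted p 0.669). A gene can therefore differ between these groups without being called. At an unadjusted p under 0.05 there were again 0 of 10 members, against 4.98% of all tested genes. On average 7 members were higher and 3 lower in deleted uteri, and their median log2 difference was 0.07, which ranged from 0.04 (without Nat10-deleted replicate 3) to 0.14 (without Nat10-deleted replicate 2) with single libraries left out. Over all tested genes 56.6% were higher and the median was 0.03. After each of 3 rescalings of the libraries (quantile normalization, median centring and upper-quartile scaling) 6 members were higher and 4 lower, with medians of 0.03 to 0.04, and 49.1 to 50% of all tested genes were higher. With single libraries left out, the number of higher members ranged from 6 to 9. The 9 were found without Nat10-deleted replicate 1, where 57.5% of all tested genes were higher. With array quality weights 5 members were higher and 5 lower. The groups did not overlap for 1 member, Mcl1, against 10.7% of all tested genes, so the share among the members was close to the background. The mean differences ran from -0.37 for Bmf to 0.34 for Bcl2l11 on the scale of log2(FPKM + 1), which understates differences of low genes.

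**Figure D1:**
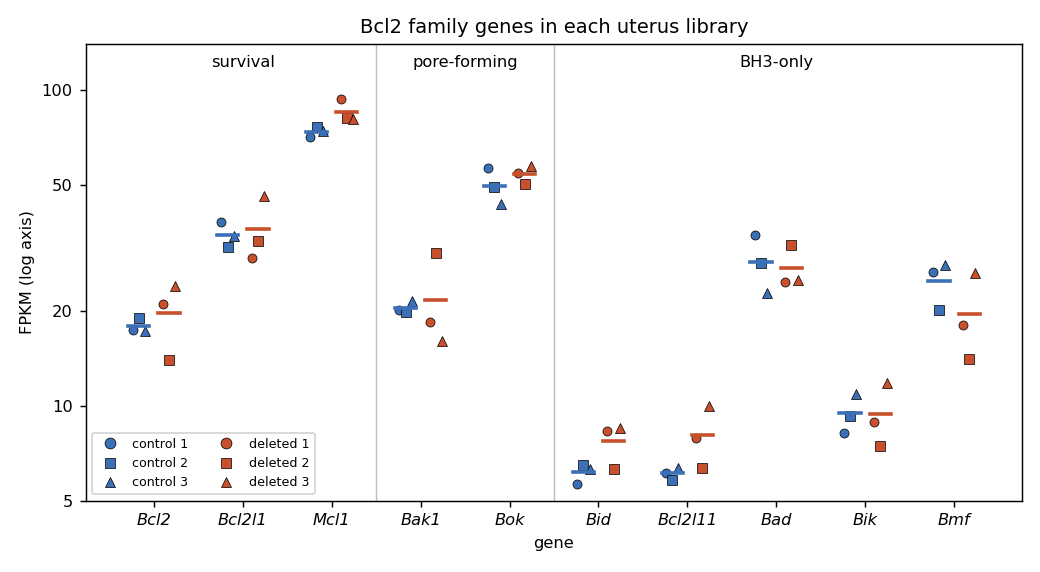
FPKM (log axis) of the 10 family genes in each library, with floxed controls in blue, Nat10-deleted uteri in red, marker shape giving the replicate number and a bar at each group mean. Only Mcl1 shows 3 red points above all 3 blue ones, and the red points are more spread than the blue ones for 8 of the 10 genes.

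In control uteri the order of levels was led by Mcl1, at 73.8 ± 2.71 FPKM (SD, n = 3), followed by Bok at 49.8 ± 6.66 and Bcl2l1 at 34.9 ± 3.18. The 3 control values of Mcl1 did not overlap those of Bok, and those of Bok did not overlap those of Bcl2l1. Bcl2l1 (31.9 to 38.2 FPKM) overlapped Bad (22.8 to 34.8), Bad overlapped Bmf (20.2 to 27.9), and Bmf overlapped Bak1 (19.9 to 21.5). Bcl2 lay below Bak1 without overlap, at 17.9 ± 0.977 FPKM, and Bik lay below Bcl2 at 9.46 ± 1.34. Bid, at 6.16 ± 0.434 FPKM, and Bcl2l11, at 6.11 ± 0.267, were lowest and overlapped each other. Of the survival genes, Mcl1 had 4.12 times the level of Bcl2, and the pore-forming gene with the highest level was Bok rather than Bak1. In deleted uteri the 4 highest means kept their order, followed by Bak1 (21.7 FPKM), Bcl2 (19.6), Bmf (19.5), Bik (9.39), Bcl2l11 (8.08) and Bid (7.71).

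Among the survival genes, Mcl1 encodes a short-lived protein that binds BAK and several BH3-only proteins, and whose level depends on steady synthesis. Mcl1 (ENSMUSG00000038612, chr3:95658788-95663176 in mm10, plus strand) was at 70.9, 76.3 and 74.1 FPKM in control replicates 1, 2 and 3 and at 93.5, 81.8 and 80.9 FPKM in Nat10-deleted replicates 1, 2 and 3. Every deleted library lay above every control, with the highest value in replicate 1. The mean was 73.8 ± 2.71 FPKM in controls and 85.4 ± 7.01 FPKM in deleted uteri (SD, n = 3), or 115.8% of control. The log2 difference was 0.21 (SE 0.11, 95% interval -0.04 to 0.46; limma unadjusted p 0.0923, adjusted p 0.922). The exact two-sided permutation test gave 0.1, which is the smallest p that 3 libraries against 3 allow. With single libraries left out it ranged from 0.14 (without Nat10-deleted replicate 1, limma unadjusted p 0.256) to 0.24 (without Nat10-deleted replicate 3). After quantile normalization Mcl1 overlapped between groups, with Nat10-deleted replicate 2 at 73.9 and the highest control at 77.5. It did not overlap after median centring (lowest deleted value 79.8, highest control 76.6) or upper-quartile scaling (79.5 and 76.1).

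Bcl2, the founding survival gene, was spread widely among deleted uteri and narrowly among controls. Bcl2 (ENSMUSG00000057329, chr1:106538178-106714274, minus strand) was at 17.4, 19 and 17.3 FPKM in the 3 controls and at 21, 13.9 and 24 FPKM in Nat10-deleted replicates 1, 2 and 3. Replicates 1 and 3 lay above every control and replicate 2 below every control. Bcl2 differed by 0.10 on the log2 scale (SE 0.19, 95% interval -0.35 to 0.54; limma adjusted p 0.982). It was 0.31 without Nat10-deleted replicate 2 (limma unadjusted p 0.0248, adjusted p 0.293), and it was 0.03 or -0.06 when replicate 1 or replicate 3 of the deleted group was omitted. In log2 values its standard deviation in deleted uteri was 5.26 times that in controls, but 1.79 times with Nat10-deleted replicate 2 left out, where the medians over all tested genes were 1.73 and 1.05 times. With control replicate 2 left out the other controls were nearly equal and the ratio was 99.27.

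Bcl2l1 encodes BCL-XL, a long-lived survival protein, together with a shorter death-promoting splice form that gene-level values cannot separate. Bcl2l1 (ENSMUSG00000007659, chr2:152780668-152831728, minus strand) was at 38.2, 31.9 and 34.5 FPKM in controls and at 29.4, 33.3 and 46.2 FPKM in Nat10-deleted replicates 1, 2 and 3. The deleted values reached both below and above the controls. Between groups Bcl2l1 differed by 0.04 on the log2 scale (SE 0.17, 95% interval -0.37 to 0.44; limma adjusted p 0.991), and it was -0.15 without Nat10-deleted replicate 3 and -0.03 without control replicate 2.

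Summed over the 3 survival genes, the level was 126.5, 127.2 and 125.8 FPKM in controls and 143.9, 129.1 and 151.1 FPKM in deleted uteri, with replicate 2 only 1.89 FPKM above the highest control. The survival sums did not overlap as deposited, as for 10.7% of single tested genes, but they overlapped after each of the 3 rescalings. The sums of the 2 pore-forming genes overlapped, at 65 to 76.8 FPKM in controls and 72.9 to 80.9 FPKM in deleted uteri, as did those of the 5 BH3-only genes, at 70 to 81.2 and 66.5 to 81.8 FPKM. Mcl1 made up 0.561 to 0.6 of the survival sum in controls and 0.535 to 0.65 in deleted uteri.

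The pore-forming genes showed different patterns in the deleted libraries. BAK, encoded by Bak1, sits in the outer mitochondrial membrane and oligomerises into pores once activated. Bak1 (ENSMUSG00000057789, chr17:27019810-27029009, minus strand) was at 20, 19.9 and 21.5 FPKM in controls and at 18.4, 30.6 and 16 FPKM in Nat10-deleted replicates 1, 2 and 3. Replicate 2 was above every control and replicates 1 and 3 were below every control, which is the reverse of the order seen for Bcl2. For Bak1 the log2 difference was 0.03 (SE 0.22, 95% interval -0.48 to 0.54; limma adjusted p 0.993). It was -0.24 without Nat10-deleted replicate 2 and lay between -0.01 and -7e-04 after the 3 rescalings of the libraries, so no direction is given for it. The standard deviation of Bak1 in deleted uteri was 7.87 times that in controls, but 2.24 times with replicate 2 left out and 52.5 times with control replicate 3 left out. The proliferation markers had the same order among the deleted libraries, at summed levels of 19.8, 219.5 and 11.5 FPKM in replicates 1, 2 and 3, and their part in the spread of Bak1 was not tested.

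BOK is a relative of BAK and BAX that is not restrained by the survival proteins in the usual way and resides largely on the endoplasmic reticulum. Bok (ENSMUSG00000026278, chr1:93685660-93695764, plus strand) was at 56.8, 49.2 and 43.5 FPKM in controls and at 54.5, 50.3 and 57.6 FPKM in deleted uteri. Replicates 1 and 2 lay within the control range and replicate 3 just above it. Its log2 difference was 0.12 (SE 0.13, 95% interval -0.18 to 0.42; limma adjusted p 0.947). Single libraries moved it, to 0.22 without control replicate 1, 0.03 without control replicate 3 and 0.08 without Nat10-deleted replicate 3.

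The BH3-only genes held both the largest positive and the largest negative difference of the family. To show the sequence upstream of these genes, the promoter stretches of Bcl2l11 and Bid, which were higher on average, and of Bmf, which was lower on average, are printed 5′ to 3′ on the strand of the gene. They come from RefSeq (GRCm38.p6, the assembly that mm10 names), start 250 bases before an annotated start site and leave out bases within annotated exons. Bcl2l11 and Bmf have several start sites, and the stretch at the outermost one is shown. Capitals mark matches, on either strand, to the FoxO motif TGTTTAC or to CCAAT.
Bcl2l11, chr2:128125788-128126037, plus strand: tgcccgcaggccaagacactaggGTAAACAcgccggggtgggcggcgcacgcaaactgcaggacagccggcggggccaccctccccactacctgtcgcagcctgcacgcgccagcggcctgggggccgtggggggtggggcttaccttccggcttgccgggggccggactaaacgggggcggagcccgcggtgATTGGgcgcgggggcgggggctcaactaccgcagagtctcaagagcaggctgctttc
Bid, chr6:120916854-120917074, minus strand: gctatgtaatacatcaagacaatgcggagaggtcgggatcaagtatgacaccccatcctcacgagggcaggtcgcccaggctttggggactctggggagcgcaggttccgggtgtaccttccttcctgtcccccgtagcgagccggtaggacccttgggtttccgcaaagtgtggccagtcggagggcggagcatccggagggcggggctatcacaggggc
Bmf, chr2:118549688-118549936, minus strand: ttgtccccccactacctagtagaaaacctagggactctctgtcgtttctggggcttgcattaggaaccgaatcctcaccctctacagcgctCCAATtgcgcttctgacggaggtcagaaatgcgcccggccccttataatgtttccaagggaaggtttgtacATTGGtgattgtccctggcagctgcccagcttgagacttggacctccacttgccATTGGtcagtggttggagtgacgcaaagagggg

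The Bcl2l11 stretch held 1 FoxO match, written GTAAACA on the strand shown, and 1 CCAAT match. The Bmf stretch held 3 CCAAT matches and the Bid stretch held neither motif. RefSeq windows were found for 9 of the 10 members, 15 windows in all, and Bik had no entry. A FoxO match was present in 1 of the 15 windows and in 3.17% of all 32851 windows of the same length, and CCAAT in 5 of 15 and in 33.8%. The p53 half-site was found in 1 of 15 windows, at another start site of Bmf, and in 7.13% of all windows. An E2F motif (TTTCCCGC, TTTCGCGC, TTTGCCGC or TTTGGCGC on either strand) was found in 1 of 15, at a start site of Bcl2l1, and in 1.86% of all windows. A match is a description of letters and says nothing of binding.

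BIM, encoded by Bcl2l11, binds all survival proteins and can activate BAX and BAK directly. Bcl2l11 (ENSMUSG00000027381, chr2:128126038-128162547, plus strand) was at 6.12, 5.83 and 6.36 FPKM in controls and at 7.91, 6.35 and 9.98 FPKM in Nat10-deleted replicates 1, 2 and 3. Replicates 1 and 3 lay above every control, while replicate 2 fell just inside the control range. The mean was 6.11 ± 0.267 FPKM in controls and 8.08 ± 1.82 FPKM in deleted uteri (SD, n = 3), or 132.3% of control. The log2 difference was 0.34 (SE 0.16, 95% interval -0.04 to 0.71; limma unadjusted p 0.0725, adjusted p 0.922; exact permutation p 0.2), the smallest unadjusted p of the 10 members. It was 0.48 without Nat10-deleted replicate 2 (limma unadjusted p 0.00772, adjusted p 0.226) and 0.19 without Nat10-deleted replicate 3.

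BID is the BH3-only protein cut by caspase 8, which carries a death receptor signal to the mitochondrion. Bid (ENSMUSG00000004446, chr6:120891930-120916853, minus strand) was at 5.67, 6.49 and 6.32 FPKM in controls and at 8.32, 6.29 and 8.53 FPKM in Nat10-deleted replicates 1, 2 and 3. As for Bcl2l11, replicates 1 and 3 were above every control and replicate 2 was within their range. The mean in deleted uteri was 125.2% of control. Bid differed by 0.27 on the log2 scale (SE 0.14, 95% interval -0.05 to 0.60; limma unadjusted p 0.0899, adjusted p 0.922), and it was 0.40 without Nat10-deleted replicate 2 (limma unadjusted p 0.0108, adjusted p 0.245) but 0.20 when replicate 3 was omitted (limma unadjusted p 0.223).

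BMF is held at the cytoskeleton and is known as a mediator of death in cells that detach from their matrix. Bmf (ENSMUSG00000040093, chr2:118528757-118549687, minus strand) was at 26.5, 20.2 and 27.9 FPKM in controls and at 18.1, 14 and 26.4 FPKM in Nat10-deleted replicates 1, 2 and 3. Replicates 1 and 2 lay below every control and replicate 3 within the control range. The mean was 24.9 ± 4.12 FPKM in controls and 19.5 ± 6.31 FPKM in deleted uteri (SD, n = 3), or 78.5% of control. The log2 difference was -0.37 (SE 0.23, 95% interval -0.90 to 0.17; limma unadjusted p 0.152, adjusted p 0.922). It was -0.60 without Nat10-deleted replicate 3 (limma unadjusted p 0.0149, adjusted p 0.436), -0.16 without Nat10-deleted replicate 2, and -0.50 without control replicate 2.

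Bad and Bik had mean differences near 0. BAD is switched off by phosphorylation downstream of growth factors, and BIK acts at the endoplasmic reticulum. Bad (ENSMUSG00000024959, chr19:6941861-6951899, plus strand) was at 34.8, 28.2 and 22.8 FPKM in controls and at 24.7, 32.4 and 25.1 FPKM in deleted uteri, all within the control range. Its log2 difference was -0.05 (SE 0.18, 95% interval -0.47 to 0.37; limma adjusted p 0.989). Bik (ENSMUSG00000016758, chr15:83526862-83544634, plus strand) was at 8.21, 9.3 and 10.9 FPKM in controls and at 8.9, 7.48 and 11.8 FPKM in deleted uteri, which reached to both sides of the control range. Its log2 difference was -0.02 (SE 0.18, 95% interval -0.44 to 0.39; limma adjusted p 0.993). The sign of both depended on single libraries: Bad was at 0.10 without control replicate 1, and Bik at 0.11 without Nat10-deleted replicate 2.

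**Figure D2:**
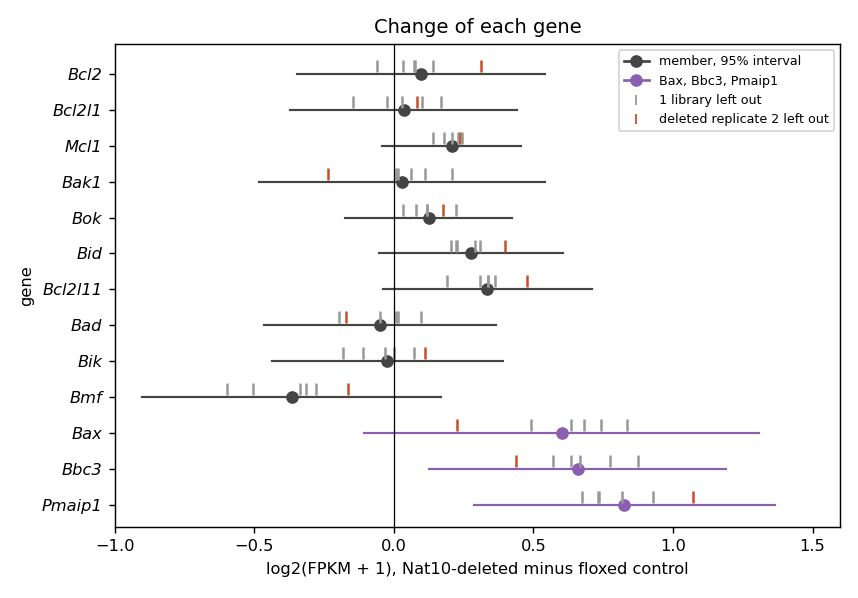
Difference in log2(FPKM + 1) between Nat10-deleted and floxed control uteri for the 10 members (black) and for Bax, Bbc3 and Pmaip1 (purple), with 95% intervals from limma; ticks above each line give the difference with 1 library left out, in red for Nat10-deleted replicate 2. The intervals of all 10 members include 0, and those of Bbc3 and Pmaip1 do not.

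Nat10-deleted replicate 3 had the highest value of all 6 libraries for 6 of the 10 members, against 22.1% of all tested genes, and lay above every control for 7 members, against 34% of all tested genes. Nat10-deleted replicate 1 lay above every control for 4 members and below every control for 3, against 34.2% and 31.9% of all tested genes, so both counts were near the background. Replicate 2 lay above for 2 and below for 3, against 38.4% and 33.1%. Replicate 3 also had the highest summed epithelial markers, 1165 FPKM against 860 to 979 FPKM in the other libraries, and the lowest summed proliferation markers, 11.5 FPKM. The part of these marker differences in the members' values was not tested.

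Without Nat10-deleted replicate 2 the groups did not overlap for 5 members, with Bcl2, Bcl2l11, Bid and Mcl1 higher and Bak1 lower. The same omission left 31.8% of all tested genes without overlap. In that comparison 3 members (Bcl2, Bcl2l11 and Bid) had an unadjusted p under 0.05, against 13.7% of all tested genes, and none passed the adjusted threshold (limma). Without Nat10-deleted replicate 3 the count was 2 (Bmf and Mcl1), against 30.2% of all tested genes. It was also 2 without control replicate 1 (Bok and Mcl1, against 17% of all tested genes), control replicate 2 (Bmf and Mcl1, against 20.5%) or control replicate 3 (Bcl2l11 and Mcl1, against 15.7%), and 1 (Mcl1) without Nat10-deleted replicate 1, against 15%. Mcl1, already without overlap over all 6 libraries, is part of each of these counts by construction. The counts of 1 and 2 members were close to these shares or below them.

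**Figure D3:**
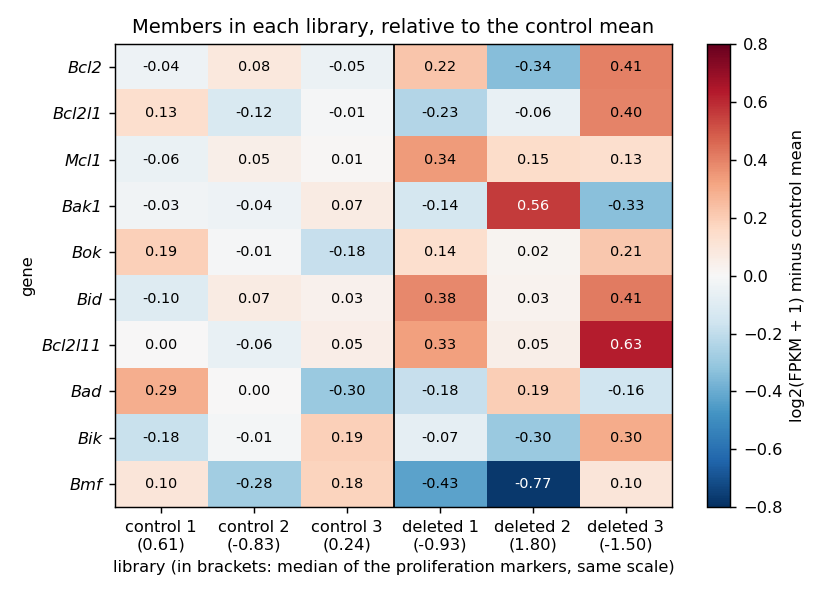
log2(FPKM + 1) of each member in each library minus the mean of the 3 controls, red for higher and blue for lower, with the median of the tested proliferation markers on the same scale in brackets under each library. Nat10-deleted replicates 1 and 3 share positive values for Bcl2, Bid and Bcl2l11 and negative values for Bak1, whereas replicate 2 has -0.34 for Bcl2 and 0.56 for Bak1.

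For 8 of the 10 members the standard deviation of log2 values was larger in deleted uteri than in controls, with a median ratio of 2.3, and for 73.9% of all tested genes, with a median of 1.73. Without Nat10-deleted replicate 2 the ratio was above 1 for 7 members, with a median of 1.66, and for 51.9% of all tested genes, with a median of 1.05.

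Balances between members were set side by side within each library as ratios of FPKM, chosen after the values were seen. Of 8 such ratios, 2 did not overlap between groups, where 10.7% of single tested genes did not. The ratios share genes with each other, so the share of single genes cannot say whether 2 of 8 is unusual. Summed survival genes over summed BH3-only genes came to 1.558, 1.816 and 1.694 in controls and to 2.117, 1.94 and 1.847 in Nat10-deleted replicates 1, 2 and 3. The deleted uteri were higher in each library, but replicate 3 was close to the highest control. This BH3-only sum leaves out the BH3-only genes Bbc3 and Pmaip1, which were higher in every deleted library than in every control. The separation therefore holds for this choice of genes only and does not describe all BH3-only genes. Bcl2 over Bcl2l11, the gene of its antagonist BIM, was 2.835, 3.262 and 2.718 in controls and 2.65, 2.196 and 2.405 in deleted uteri, lower in each deleted library but with replicate 1 close to the lowest control. Mcl1 over Bak1 was 3.538, 3.843 and 3.446 in controls and 5.073, 2.677 and 5.043 in deleted uteri, with replicate 2 below every control and replicates 1 and 3 above. Mcl1 over Bcl2l11 (11.6 to 13.1 in controls and 8.11 to 12.9 in deleted uteri) and summed survival genes over all 7 death-promoting members (0.8 to 0.915 and 0.876 to 1.021) overlapped.

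The family genes outside the 10 include the pore-forming gene Bax and the BH3-only genes Bbc3 (PUMA) and Pmaip1 (NOXA), 3 known targets of p53. Bax was at 51.7, 55.2 and 42.1 FPKM in controls and at 62, 127 and 54.2 FPKM in Nat10-deleted replicates 1, 2 and 3, so that replicate 3 fell within the control range. Bbc3 was at 6.1, 4.36 and 4.84 FPKM in controls and at 6.11, 12 and 8.46 FPKM in deleted uteri, with replicate 1 barely above the highest control. Pmaip1 was at 2.5, 3.08 and 2.13 FPKM in controls and at 6.15, 3.46 and 6.78 FPKM in deleted uteri, without overlap. Bax and Bbc3 were highest in replicate 2, like Bak1, whereas Pmaip1 was highest in replicates 1 and 3, like Bcl2l11 and Bid.

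The log2 differences were 0.60 for Bax, 0.66 for Bbc3 and 0.83 for Pmaip1, each larger than that of any of the 10 members, and none passed the threshold (limma, adjusted p 0.922 for each). Without Nat10-deleted replicate 2 they were 0.23, 0.44 and 1.07. The ratio of Bcl2 to Bax was 0.336, 0.344 and 0.411 in controls and 0.339, 0.109 and 0.443 in deleted uteri, low in replicate 2 only. Of the 14 other family genes fixed for the comparison, 13 were listed and 12 tested, of which 10 were higher and 2 lower on average with a median log2 difference of 0.12. Bbc3 and Pmaip1 were the 2 that did not overlap, against 10.7% of all tested genes, and the 2 with an unadjusted p under 0.05, against 4.98%. For Bbc3 that p was 0.0746 without control replicate 2, 0.0593 without control replicate 3 and 0.12 with array quality weights (limma; log2 difference 0.28 with those weights). With single libraries left out, the median of the 12 ranged from 0.08 (without control replicate 1) to 0.18 (without Nat10-deleted replicate 3). Bcl2l2, the survival gene encoding BCL-W, was nearly level at 16.3 ± 0.56 FPKM in controls and 17 ± 0.765 FPKM in deleted uteri (SD, n = 3).

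At the mitochondrion and downstream of it, the list of cytochrome c, apoptosome, caspase, inhibitor and voltage-dependent channel genes had 18 tested members. Of these, 15 were higher and 3 lower on average, with a median log2 difference of 0.14. None was called by limma, none had an unadjusted p under 0.05 and 1 did not overlap, a smaller share than the 10.7% of all tested genes. That gene was Dffb, which encodes the nuclease that cuts DNA in dying cells, at 4.89 ± 0.289 FPKM in controls and 6.24 ± 0.796 FPKM in deleted uteri (SD, n = 3; log2 difference 0.29). Vdac2, a channel protein that holds BAK at the mitochondrion, had a log2 difference of 0.21 (0.10 with Nat10-deleted replicate 2 left out and 0.32 with replicate 3 left out), and Diablo, whose product blocks caspase inhibitors, 0.18 (0.11 with Nat10-deleted replicate 1 left out). Leaving out Nat10-deleted replicate 2 gave a list median of 0.05, and leaving out replicate 3 of that group gave 0.22.

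In the death receptor list 8 of 11 tested genes were higher and 3 lower on average, with a median log2 difference of 0.07. Fas, the receptor of Fas ligand and a known p53 target, was at 3.87, 2.86 and 6.15 FPKM in controls and at 7.87, 10.4 and 6.84 FPKM in deleted uteri. Its values did not overlap, with a log2 difference of 0.85 (SE 0.25; limma unadjusted p 0.0093, adjusted p 0.922). Tnfrsf10b, the TRAIL receptor, also did not overlap (log2 difference 0.39, and 0.21 without Nat10-deleted replicate 2). These 2 of 11 stand against 10.7% of all tested genes without overlap. Casp8, the protease that cuts BID, had a log2 difference of 0.26 but of -0.02 without Nat10-deleted replicate 2, and of 0.53 when replicate 3 was omitted. The median of the list was -0.02 without Nat10-deleted replicate 2, 0.04 when replicate 1 of that group was omitted and 0.03 when control replicate 1 was.

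Among 25 regulators and binding partners of the family, 14 were higher and 11 lower on average, with a median log2 difference of 0.01 that ranged from -0.05 to 0.06 with single libraries left out. The groups did not overlap for 2 of the 25, a smaller share than the 10.7% of all tested genes. The stress-induced transcription factor gene Atf4 differed by 0.37 with overlap, at 75.3, 92.8 and 70.1 FPKM in controls and 116, 110 and 84.3 FPKM in deleted uteri. Itpr1, which encodes a calcium channel of the endoplasmic reticulum, differed by -0.26 with overlap (-0.17 without control replicate 3 and -0.39 without Nat10-deleted replicate 3). Stat5a, a cytokine-activated transcription factor gene, differed by -0.20 without overlap. Huwe1, which encodes a ubiquitin ligase that targets MCL1 protein, was the other gene of the list without overlap, at 39.7 ± 1.4 FPKM in controls and 35.8 ± 1.12 FPKM in deleted uteri (SD, n = 3), and was named after its values were seen. None of the 25 was called by limma and none had an unadjusted p under 0.05.

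**Figure D4:**
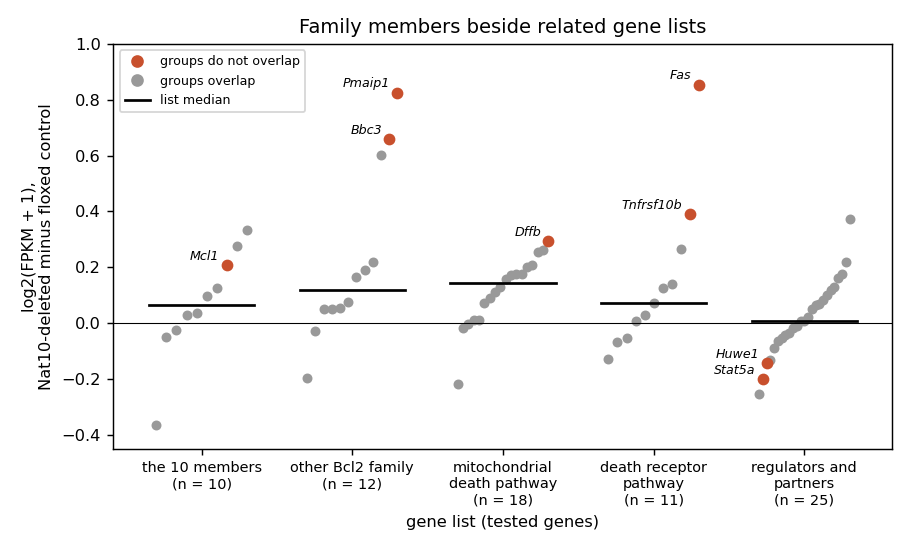
Difference in log2(FPKM + 1) between Nat10-deleted and floxed control uteri for each tested gene of the family and of 4 related lists, with red points where the groups do not overlap and a bar at each list median. The list medians lie between 0.01 and 0.14, and the largest differences belong to Fas, Pmaip1 and Bbc3.

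Cell types use the family differently, and whole uterus cannot tell fewer cells of a type from less RNA per cell. All 10 stromal markers and all 8 endothelial markers were lower on average in deleted uteri (median log2 differences -0.33 and -0.26), and 8 of 12 epithelial markers were higher (0.12, and 0.20 without Nat10-deleted replicate 2). Of 8 smooth muscle markers 5 were higher and 3 lower, with a median near 0 that ranged from -0.06 to 0.07 with single libraries left out. Summed stromal markers ranged from 3737 to 4324 FPKM in controls and from 3059 to 4197 FPKM in deleted uteri, and summed endothelial markers from 269 to 299 FPKM and from 230.1 to 257 FPKM. All 5 tested blood markers were lower on average (median -0.98, but -0.47 without control replicate 1 and -1.68 without control replicate 3), and their summed level overlapped between groups, at 852 to 5582 FPKM in controls and 709 to 1723 FPKM in deleted uteri. Lymphocytes are known for high Bcl2 and Bcl2l11. Of 10 lymphocyte markers 4 were high enough to test, all 4 were higher on average, and the summed level was 7.37 to 16.3 FPKM in controls and 14.6 to 25.5 FPKM in deleted uteri. Of the B cell markers, Ms4a1 was at 0.188, 0.0772 and 0.0479 FPKM in controls and listed at 0 in all 3 deleted libraries, while Cd79b was at 1.15, 0.371 and 0.759 FPKM in controls and at 1.35, 1.31 and 2.9 FPKM in deleted uteri. The part of any of these markers in the members' differences was not tested.

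The genes whose profile over the 6 libraries was most like that of Bcl2, by the root mean square difference of centred log2 values among 12639 other tested genes, were Chrnb1 (0.027), Slc24a3 (0.028) and Hip1r (0.047). Bcl2 itself varied by 0.23 around its own mean on this measure. For Bcl2l11, which varied by 0.24, they were Tceanc (0.039), Surf1 (0.053) and Plxdc2 (0.06).

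Exons of 4 members overlap a gene on the opposite strand in the annotation: Bad overlaps Gpr137, Bak1 overlaps Ggnbp1, Bcl2 overlaps D630008O14Rik and Bid overlaps Bcl2l13. The sources used here do not say whether strand was used in the quantification, so reads of these pairs may have been shared. Gpr137 was at 12 to 12.4 FPKM in controls and 8.57 to 11.7 FPKM in deleted uteri, and Bcl2l13 at 7.58 to 8.3 and 7.02 to 8.6. Ggnbp1 had its lowest value, 1.48 FPKM, in Nat10-deleted replicate 2, where Bak1 had its highest.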

How the data were processed

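Per the labels, poly(A) RNA of whole uterus was extracted with TRIzol and made into libraries with the Illumina TruSeq RNA kit. The submitters' processing notes name HISAT2 2.2.1, Cufflinks 2.2.1 and the mm10 build. The deposited tables hold 1 value per gene, taken as FPKM computed by the authors: the unit was inferred from Cufflinks and from the values, since headers give only library names. Annotation, gene filter, strand and any scaling between libraries are not given in the sources used here.

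Values were analysed as log2(FPKM + 1) for genes with at least 1 FPKM in at least 3 libraries. Groups, read from the sample titles, were tested against each other in R 4.3.3 with limma 3.58.1 (trended eBayes, group as the only term, two-sided, Benjamini-Hochberg over all 12640 genes) and, for single genes, by exact permutation. The fit was also run on simulated data, with normal noise and the control standard deviation in both groups. In the real data the standard deviation was larger in deleted uteri (median ratio 1.73 over all tested genes). The simulation therefore does not show how the fit performs here. Coordinates come from GENCODE M21 (GRCm38, as mm10), which matched 20558 of 20637 identifiers. The members, lists and tests were chosen with earlier results of these data known. Named genes were the 10 members, Nat10, Bax, Bbc3 and Pmaip1, the 3 smallest p of each related list, and the 3 likest profiles for Bcl2 and for the member with the smallest p. Other ratios and counts were chosen afterwards. Alternatives covered scaling, filters, pseudocount, variance model, library weights, the replicate block and each library left out. Absolute depth is unknown, so no counting intervals are given. Relative depth came from the most frequent ratio of low values to control replicate 1.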

Additional observations from a re-analysis of the deposited data

How the results depend on the processing

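No gene was called (limma, adjusted p of 0.05) under any setting except array quality weights, which called 316 genes and 0 members, and the omission of single libraries, where the count ranged from 0 to 12, the 12 without Nat10-deleted replicate 2. With array quality weights, 3730 of all 12640 tested genes had a limma unadjusted p under 0.05. So did 4 of the 10 members (Mcl1, Bid, Bcl2l11 and Bmf), and the smallest adjusted p of a member was 0.0575 (Bid). Nat10 and Pmaip1 passed the threshold there (adjusted p 0.0386 for both). The count of members without overlap, an alternative chosen after the data were seen, ranged from 1 to 5 when single libraries were left out, an omission that cannot lower it. Bcl2l11, Bid, Bmf, Bok and Mcl1 kept their direction in all 16 alternatives.

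The other members reversed in some. With single libraries left out, Bcl2 ranged from -0.059 (without Nat10-deleted replicate 3) to 0.31, Bcl2l1 from -0.15 to 0.17, Bak1 from -0.24 to 0.21, Bad from -0.20 to 0.10, Bik from -0.18 to 0.11 and Casp8 from -0.018 to 0.53. Bcl2l1 was at -0.18 with array quality weights, -0.03 without control replicate 2 and -0.15 without Nat10-deleted replicate 3. Bak1 was at -0.01 after quantile normalization and after upper-quartile scaling (-0.0108 and -0.0058), -7e-04 after median centring, -0.12 with array quality weights and -0.24 without Nat10-deleted replicate 2. Bad was at 0.10, 0.02 and 0.01 without control replicate 1, Nat10-deleted replicate 1 and Nat10-deleted replicate 3. Bik was at 0.07, 3e-04 and 0.11 without control replicate 3, Nat10-deleted replicate 1 and Nat10-deleted replicate 2. Casp8 was at -0.018 without Nat10-deleted replicate 2. The summed survival genes, rescaled after the data were seen, had their lowest deleted value 1.89 FPKM above the highest control as deposited, and at -10.37, -1.86 and -2.87 relative to it after quantile normalization, median centring and upper-quartile scaling. The cause of these reversals was not tested.

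The titles do not say whether libraries of the same replicate number form pairs. Same-numbered libraries had correlations of -0.341, -0.029 and 0.1 between their deviations from the group means across genes. Not every library correlated best with its own number. With so few libraries in each group, these correlations cannot show whether the libraries were paired. With the replicate number as a block, 0 genes were called, 726 had an unadjusted p under 0.05 against 630 without it, and Bmf (unadjusted p 0.0365, adjusted p 0.849) was the 1 member among them.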

Other observations

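Several family genes outside the 10 were too low or too alike to be read closely. Hrk, a BH3-only gene known from neurons, was at 1.04, 0.599 and 0.788 FPKM in controls and at 1.28, 0.0651 and 2.77 FPKM in Nat10-deleted replicates 1, 2 and 3. Bcl2l15, a gene of epithelia of the gut, had the reverse order in deleted uteri, at 1.48, 3.65 and 0.397 FPKM, and was at 1.03, 0.739 and 2.24 FPKM in controls. Bcl2a1a, Bcl2a1b and Bcl2a1d are near-identical copies of a survival gene of leukocytes and ranged from 0.973 to 4.69 FPKM over all libraries. How the quantification assigned reads among these copies is not given in the sources used here, and their separate values are uncertain. Bcl2l10, known for its expression in oocytes, was listed at 0 in all 6 libraries.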
